A study of Mus musculus with 10 samples.

Results

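Tnfrsf14, the gene of the herpesvirus entry mediator HVEM, was described with its ligands and with the other receptors of those ligands in mouse tumours given GSK343 or vehicle. The set holds 7 of the 54299 gene symbols of the expression table: the receptors Tnfrsf14 and Ltbr, the immunoglobulin-family partners Btla and Cd160, and the ligands Tnfsf14, Lta and Ltb. It was chosen by the FPKM of Tnfrsf14 in this table, which stood higher in every GSK343 tumour than in every vehicle tumour, so that difference is given below as a description without a test. The other 6 genes were added for their place in the network. All 7 symbols were found, each on 1 line of the table.

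The tumours grew from Hepa1-6 cells, an established mouse hepatoma line, placed under the skin of C57/BL6 mice and left for 4 weeks. Poly-A RNA was sequenced from 5 tumours of mice that received GSK343, which blocks EZH2, the methyltransferase of histone H3 lysine 27, and from 5 tumours of mice given vehicle, which the submitters call biological replicates. The vehicle group was read by elimination, from titles that carry the letter C and no drug. The protocol also mentions a control antibody and an antibody to asialo-GM1, which removes natural killer cells, without a label that ties either to a tumour, and the antibody could therefore differ between or within the groups. The labels give no dose, age or sex. A subcutaneous tumour in an immunocompetent host holds tumour cells, stroma and leukocytes together, and in such bulk RNA fewer cells of a type and less RNA per cell cannot be told apart.

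HVEM is a receptor of the tumour necrosis factor (TNF) receptor superfamily that signals through TRAF adaptors to NF-kappaB when its TNF-type ligand LIGHT binds. On another face of the molecule it acts as a ligand itself, engaging BTLA and CD160 on lymphocytes. BTLA then recruits the tyrosine phosphatases SHP-1 and SHP-2 and dampens lymphocyte activation. LIGHT and the lymphotoxin alpha-beta heterotrimer also bind the lymphotoxin beta receptor on stromal and myeloid cells, which drives the non-canonical NF-kappaB pathway, adhesion molecules and the chemokines of lymphoid tissue.

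Depth and composition were looked at once for the whole table. Values were FPKM, which divides the fragments of a gene by its exon length and by the size of the library, so that levels of different genes can be set side by side. Each tumour had 13985 to 14714 lines at 1 FPKM or more, and read-like steps in the values put the libraries at 39.0 to 51.2 M reads (M, mega), an inference under which 1 FPKM is worth 39.0 to 51.2 reads per kilobase. The hepatoma genes Afp and Alb averaged 1775 ± 252 and 2810 ± 278 FPKM in GSK343 tumours, against 2085 ± 197 and 3129 ± 318 FPKM in vehicle tumours, so markers of the labelled tumour were present (SD, n = 5 per group here and throughout). The drug's target Ezh2 averaged 44.8 ± 6.60 FPKM in GSK343 tumours and 55.2 ± 7.65 FPKM in vehicle tumours, a difference of -0.30 on the log2(FPKM + 1) scale (SE 0.115) that did not pass limma's test (adjusted p = 0.233). The inhibitor acts on the enzyme, so the level of its transcript does not check the treatment. Averaged over the tumours, 14496 lines reached 1 FPKM, and 12 of these passed an adjusted p of 0.05 in limma, which is 0.0828%.

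The promoters of both receptors are shown first, because Tnfrsf14 and Ltbr share the ligand LIGHT and stand far apart in level. Both are RefSeq windows of 250 bases before to 50 bases after a gene's start, in build GRCm38.p6, read 5′ to 3′ on the gene's own strand. Tnfrsf14 lies at chr4:154928028-154928327 and Ltbr at chr6:125313836-125314135, both on the minus strand. Capitals mark matches, on either strand, to 3 motifs that were searched by their letters: TTC and GAA with any 3 bases between them (the interferon-gamma activated site, GAS), GAAA and GAAA with any 2 bases between them (the core of the interferon-stimulated response element, ISRE), and GGG and CC with any 5 bases between them (a loose NF-kappaB site).
Tnfrsf14: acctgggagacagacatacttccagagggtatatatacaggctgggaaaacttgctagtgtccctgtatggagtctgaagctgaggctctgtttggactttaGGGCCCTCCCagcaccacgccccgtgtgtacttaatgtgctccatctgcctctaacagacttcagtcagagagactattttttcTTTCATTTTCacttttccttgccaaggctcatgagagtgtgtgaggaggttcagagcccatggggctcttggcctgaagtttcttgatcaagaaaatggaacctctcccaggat
Ltbr: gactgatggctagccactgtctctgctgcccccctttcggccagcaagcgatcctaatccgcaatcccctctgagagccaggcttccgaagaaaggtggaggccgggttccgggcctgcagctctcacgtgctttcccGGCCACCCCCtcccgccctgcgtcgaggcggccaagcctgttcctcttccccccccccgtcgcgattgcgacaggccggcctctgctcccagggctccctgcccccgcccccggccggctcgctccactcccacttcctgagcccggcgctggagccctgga

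The Tnfrsf14 window held 1 match to the ISRE core, TTTCATTTTC, at bases -64 to -55 and read on the opposite strand, and 1 loose NF-kappaB match, GGGCCCTCCC, at bases -148 to -139 that matches on both strands. Among all 32851 RefSeq promoters of this length, 3.44% held the ISRE core, 8.30% the GAS and 50.8% the loose NF-kappaB letters. The Tnfrsf14 window held 2 CG dinucleotides, and 14.1% of promoters held fewer. The Ltbr window held 23 CG dinucleotides, and 78.5% of promoters held fewer, with 1 loose NF-kappaB match and neither of the interferon motifs. The median promoter had 7. The RefSeq start of Tnfrsf14 lies 486 bases downstream of the start in the authors' table, so the window sits inside the transcript as they drew it. A match of letters is a description and not a site of binding.

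Tnfrsf14 (ENSMUSG00000042333.16) is a protein-coding gene at chr4:154921933-154928563 in mm10, on the minus strand, that no other annotated gene overlaps. Its levels in GSK343 tumours 1 to 5 were 5.55, 6.04, 8.63, 8.19 and 7.49 FPKM. In vehicle tumours 1, 2, 3, 5 and 6 they were 0.952, 2.30, 2.83, 1.71 and 2.19 FPKM. The lowest GSK343 tumour stood well above the highest vehicle tumour, which is the pattern that chose the gene. The means were 7.18 ± 1.34 FPKM in GSK343 tumours and 1.997 ± 0.708 FPKM in vehicle tumours, a ratio of 3.59. On log2(FPKM + 1) the fitted difference was 1.47 (SE 0.182), which ranked 64 from the most positive among the 14496 lines tested. The difference on this scale depends on the added constant, and was 1.86 with 0.1 FPKM and 0.80 with 5 FPKM in place of 1.

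Ltbr (ENSMUSG00000030339.7, chr6:125306571-125313885, minus strand) encodes the lymphotoxin beta receptor, which binds LIGHT as HVEM does, and also the lymphotoxin heterotrimer. Its levels were 56.8, 51.0, 48.3, 53.3 and 55.7 FPKM in GSK343 tumours, against 63.5, 52.4, 56.8, 60.1 and 56.5 FPKM in vehicle tumours. The groups overlapped, and no GSK343 tumour exceeded the highest vehicle tumour. The difference was -0.12 on log2(FPKM + 1) (SE 0.0707, 95% interval -0.28 to 0.03) and did not pass limma's test (adjusted p = 0.392). The level of Ltbr relative to Tnfrsf14 was 5.60 to 10.2 in GSK343 tumours, with a median of 7.43, and 20.03 to 66.7 in vehicle tumours, with a median of 25.8. That ratio carries the Tnfrsf14 values that chose the set, so nothing is read from its separation of the groups.

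**Figure D1:**
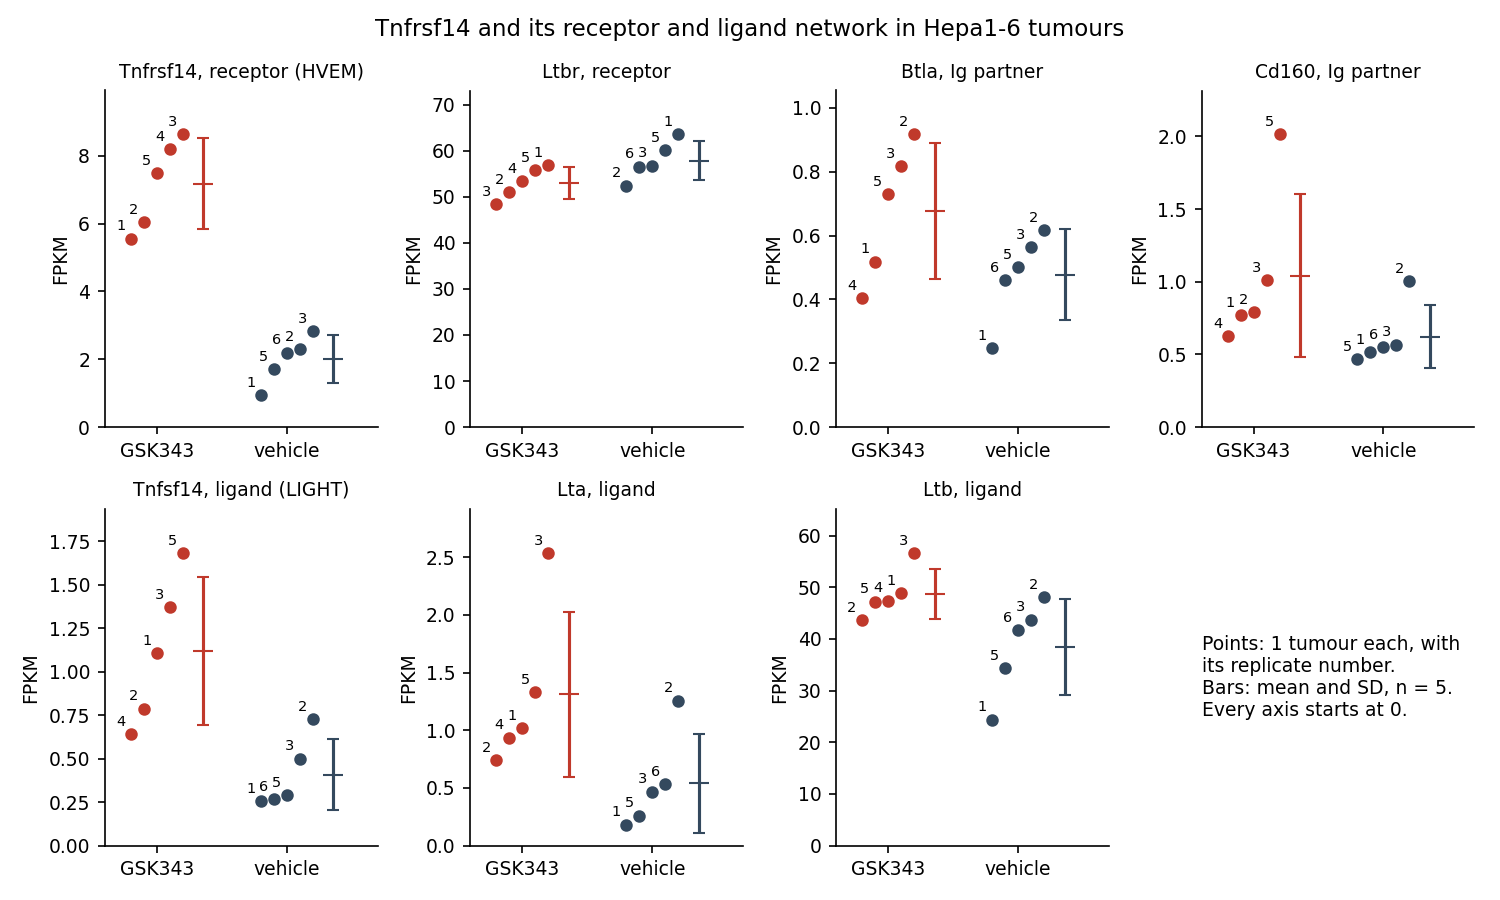
FPKM of the 7 network genes in each tumour, 1 panel per gene, with GSK343 tumours left of vehicle tumours; points are tumours and the horizontal line with bars is the group mean with its SD (n = 5 per group). GSK343 tumours sit at 5.55 FPKM or above for Tnfrsf14 and vehicle tumours at 2.83 FPKM or below, while the groups overlap in the 6 other panels.

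Both immunoglobulin-family partners averaged below 1 FPKM over the 10 tumours. Btla (ENSMUSG00000052013.15, chr16:45224315-45257670, plus strand), the inhibitory lymphocyte receptor that HVEM engages, was at 0.518, 0.917, 0.817, 0.404 and 0.730 FPKM in GSK343 tumours, against 0.247, 0.616, 0.564, 0.502 and 0.460 FPKM in vehicle tumours. Of the GSK343 tumours, 3 stood above the highest vehicle tumour and the other 2 stood within the vehicle values. The difference was 0.18 on log2(FPKM + 1) (SE 0.102, 95% interval -0.05 to 0.40), with a limma adjusted p = 0.413 over the 20880 lines that averaged 0.1 FPKM or more. This lower filter was used for the 4 of the 7 genes whose mean was below 1 FPKM. Of those 20880 lines, 0.0335% were called.

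Cd160 (ENSMUSG00000038304.14, chr3:96798763-96829351, minus strand), a glycolipid-anchored receptor of natural killer cells and cytotoxic T cells that binds HVEM, was at 0.768, 0.790, 1.01, 0.624 and 2.01 FPKM in GSK343 tumours. In vehicle tumours it was at 0.517, 1.005, 0.568, 0.467 and 0.552 FPKM. A single tumour stood apart in each group, GSK343 tumour 5 and vehicle tumour 2, and the groups overlapped. The difference was 0.30 (SE 0.162, 95% interval -0.05 to 0.66), and it did not pass limma's test (adjusted p = 0.386). The 5′ end of Cd160 overlaps Pdzk1 on the opposite strand, and without a stated strand setting their reads cannot be told apart there.

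The promoters of the 3 ligands are shown because LIGHT and both lymphotoxins had higher means in GSK343 tumours while their windows differ in motif content. Tnfsf14 lies at chr17:57194132-57194431 and Lta at chr17:35205302-35205601, both on the minus strand, and Ltb at chr17:35194257-35194556 on the plus strand. Capitals mark the same 3 motifs, and matches that overlap run together.
Tnfsf14: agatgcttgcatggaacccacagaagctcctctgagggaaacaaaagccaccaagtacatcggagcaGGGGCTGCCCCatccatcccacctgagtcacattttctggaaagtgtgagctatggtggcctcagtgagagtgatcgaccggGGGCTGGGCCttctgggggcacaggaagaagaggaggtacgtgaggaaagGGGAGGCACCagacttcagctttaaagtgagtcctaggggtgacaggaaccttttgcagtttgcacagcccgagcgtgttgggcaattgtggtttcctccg
Lta: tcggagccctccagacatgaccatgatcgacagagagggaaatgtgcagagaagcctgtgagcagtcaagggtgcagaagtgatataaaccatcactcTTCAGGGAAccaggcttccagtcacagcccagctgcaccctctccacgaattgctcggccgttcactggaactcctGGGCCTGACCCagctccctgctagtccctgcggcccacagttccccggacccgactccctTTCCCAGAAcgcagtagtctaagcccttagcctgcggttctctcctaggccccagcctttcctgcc
Ltb: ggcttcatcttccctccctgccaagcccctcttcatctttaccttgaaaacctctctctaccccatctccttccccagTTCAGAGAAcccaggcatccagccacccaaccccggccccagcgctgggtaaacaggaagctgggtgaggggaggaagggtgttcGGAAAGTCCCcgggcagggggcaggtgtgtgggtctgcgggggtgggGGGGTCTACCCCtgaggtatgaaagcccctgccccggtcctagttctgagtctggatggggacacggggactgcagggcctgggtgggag

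The Lta window held 2 GAS matches, TTCAGGGAA at bases -152 to -144 and TTCCCAGAA at bases -16 to -8, and 2 overlapping loose NF-kappaB matches at bases -76 to -66. The Ltb window held 1 GAS match, TTCAGAGAA at bases -172 to -164, and 4 loose NF-kappaB matches, 1 of them GGAAAGTCCC at bases -87 to -78 and the others overlapping at bases -40 to -29. The Tnfsf14 window held 4 loose NF-kappaB matches and no GAS match. None of the 3 ligand windows held the ISRE core that stood in the Tnfrsf14 window. The windows held 7, 10 and 7 CG dinucleotides for Tnfsf14, Lta and Ltb. The Btla window held none of the motifs. Each of the 2 Cd160 windows held 1 loose NF-kappaB match, and the first also held 1 GAS match.

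Tnfsf14 (ENSMUSG00000005824.6, chr17:57189492-57194189, minus strand) encodes LIGHT, the TNF-type ligand of HVEM and of the lymphotoxin beta receptor. Its levels were 1.10, 0.786, 1.37, 0.641 and 1.68 FPKM in GSK343 tumours, against 0.255, 0.726, 0.4997, 0.291 and 0.266 FPKM in vehicle tumours. All but 1 of the GSK343 tumours stood above the highest vehicle tumour, and the overlap was between GSK343 tumour 4 and vehicle tumour 2. The means were 1.12 ± 0.424 FPKM in GSK343 tumours and 0.407 ± 0.204 FPKM in vehicle tumours. The difference was 0.58 on log2(FPKM + 1) (SE 0.145, 95% interval 0.26 to 0.90), which did not pass limma's adjustment over all lines (adjusted p = 0.215). With 0.1 FPKM as the added constant and no filter it was 1.27, a setting chosen after seeing the data.

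Lta (ENSMUSG00000024402.5, chr17:35203165-35205351, minus strand) encodes lymphotoxin alpha, a ligand of the TNF receptors as a homotrimer and a subunit of the lymphotoxin heterotrimer. It was at 1.02, 0.738, 2.54, 0.937 and 1.33 FPKM in GSK343 tumours, against 0.181, 1.26, 0.467, 0.259 and 0.534 FPKM in vehicle tumours. Vehicle tumour 2 lay among the GSK343 values, and every other vehicle tumour was below all GSK343 tumours. The difference was 0.58 (SE 0.217, 95% interval 0.10 to 1.06), with a limma adjusted p = 0.252, and it was 1.24 with 0.1 FPKM as the added constant and no filter, again chosen after seeing the data. The microRNA gene Mir6974 lies within Lta on the same strand.

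Ltb (ENSMUSG00000024399.5, chr17:35194439-35196320, plus strand) encodes lymphotoxin beta, the subunit that anchors the heterotrimer to the cell surface and directs it to the lymphotoxin beta receptor. It was at 48.9, 43.6, 56.7, 47.4 and 47.2 FPKM in GSK343 tumours, against 24.4, 48.1, 43.8, 34.4 and 41.7 FPKM in vehicle tumours. The GSK343 values were close together and the vehicle values were spread, and 2 GSK343 tumours exceeded the highest vehicle tumour. The means were 48.7 ± 4.83 FPKM in GSK343 tumours and 38.5 ± 9.31 FPKM in vehicle tumours. The difference was 0.37 (SE 0.163, 95% interval 0.01 to 0.73) and did not pass limma's adjustment over the 14496 lines (adjusted p = 0.281). Mir6973a lies within Ltb.

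Of the 6 genes besides Tnfrsf14, 0 passed limma's adjusted threshold over all lines and 3 had an unadjusted p under 0.05, namely Tnfsf14, Lta and Ltb, all with higher means in GSK343 tumours. An unadjusted p under 0.05 was found with a higher mean for 10.5% of the 20880 lines and with a lower mean for 5.31%. The groups did not overlap for 0 of these 6 genes, against 2.43% of the same lines. Differences above 0 were found for 5 of the 6 genes, all but Ltbr, and for 51.6% of the lines. None of the 6 genes passed the adjusted threshold under any alternative that was run. For Btla, Cd160, Tnfsf14 and Lta the alternatives changed the filter, the added constant, a leukocyte covariate and the tumours included. Other scalings and variance models were run only for Ltb and Ltbr of these 6. The lowest adjusted p of any, for Tnfsf14, was 0.0765, within a range of 0.0765 to 0.999 over its 14 alternatives.

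**Figure D2:**
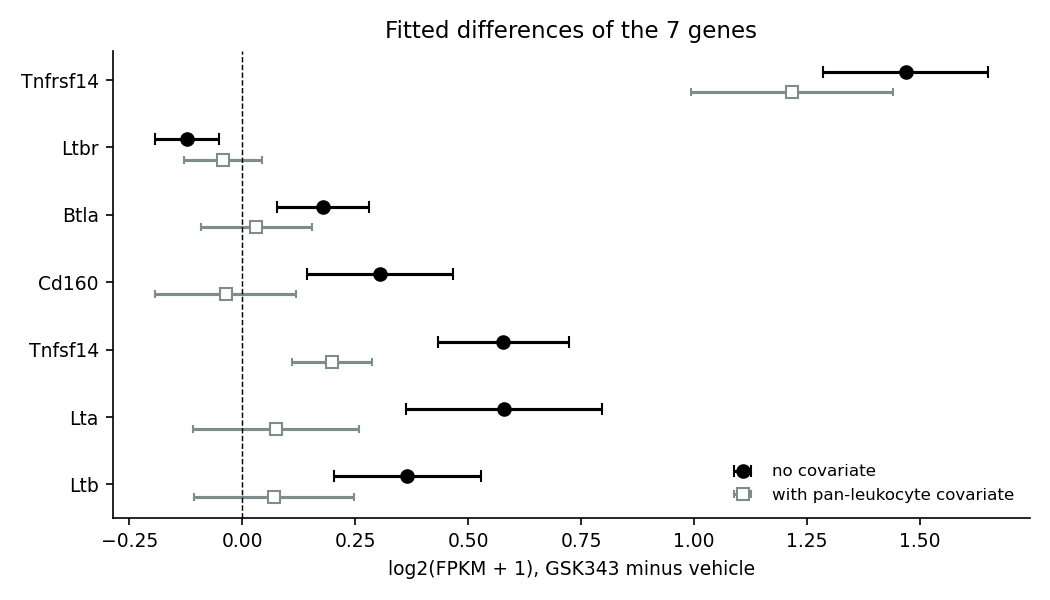
Fitted difference of log2(FPKM + 1), GSK343 minus vehicle, for the 7 genes, with bars of 1 SE; filled circles are the fit without a covariate and open squares the fit with a pan-leukocyte score as covariate. The difference of Tnfrsf14 is 1.47 without and 1.22 with the covariate, and the 6 other genes lie between -0.04 and 0.20 with it.

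Levels per length put the 7 genes in 3 tiers. Ltbr averaged 55.5 FPKM over the 10 tumours and Ltb 43.6 FPKM, with Ltbr the higher in 9 of 10 tumours. Tnfrsf14 followed at 4.59 FPKM, below Ltb and above each of the remaining genes in 10 of 10 tumours. Lta at 0.926, Cd160 at 0.831, Tnfsf14 at 0.762 and Btla at 0.578 FPKM made up the lowest tier. Neighbours in that tier changed places between tumours: Lta exceeded Cd160 in 4 of 10 tumours, Cd160 exceeded Tnfsf14 in 7 and Tnfsf14 exceeded Btla in 6.

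Ratios between partners are given as descriptions. The level of Tnfrsf14 relative to its ligand Tnfsf14 was 4.45 to 12.8 in GSK343 tumours (median 6.29) and 3.17 to 8.24 in vehicle tumours (median 5.67). Relative to Btla, Tnfrsf14 stood at 6.58 to 20.3 in GSK343 tumours (median 10.6) and at 3.41 to 5.03 in vehicle tumours (median 3.86). Both ratios carry the Tnfrsf14 values that chose the set, so nothing is read from whether their groups overlap. The level of Ltb relative to Lta was 22.3 to 59.1 in GSK343 tumours (median 47.9) and 38.3 to 135 in vehicle tumours (median 93.7), and both groups held far more Ltb than Lta transcript per length.

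Leukocyte markers moved with the groups beside these results. The summed level of 12 pan-leukocyte markers was 730, 603, 990.4, 595 and 999 FPKM in GSK343 tumours, against 325, 856, 521, 352 and 345 FPKM in vehicle tumours. All 12 were tested, 8 had an unadjusted p under 0.05 with higher means in GSK343 tumours against 10.7% of the 14496 lines, 0 passed the adjusted threshold in limma, and none was listed at 0 in all tumours. Vehicle tumour 2, the vehicle tumour with the most leukocyte RNA, was also the vehicle tumour with the highest Btla, Cd160, Tnfsf14, Lta and Ltb. Their part in the differences of the network genes was not tested beyond the values that follow.

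The Tnfrsf14 values beside the leukocyte markers are the ones that chose the gene, so they are a description and nothing is read from their separation. Vehicle tumour 2 had 2.30 FPKM of Tnfrsf14 at a marker sum of 856 FPKM, while GSK343 tumour 4 had 8.19 FPKM at 595 FPKM, the lowest sum among GSK343 tumours. Per 1000 FPKM of the markers, Tnfrsf14 was at 7.50 to 13.8 FPKM in GSK343 tumours (median 8.71) and 2.68 to 6.35 FPKM in vehicle tumours (median 4.86). With the mean log level of the markers as a covariate, the difference of Tnfrsf14 was 1.22, against 1.47 without it.

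The levels of the other genes per leukocyte marker are given as a description. Tnfsf14 was at 1.08 to 1.68 FPKM per 1000 FPKM of markers in GSK343 tumours and at 0.771 to 0.959 FPKM in vehicle tumours, without overlap. How many of all lines separate on this measure was not computed, so nothing is read from that separation. On the same measure the groups overlapped for the other genes. Lta was at 1.22 to 2.56 FPKM in GSK343 tumours and 0.556 to 1.55 FPKM in vehicle tumours. Btla was at 0.679 to 1.52 FPKM in GSK343 tumours and 0.720 to 1.43 FPKM in vehicle tumours, and Cd160 at 1.02 to 2.02 FPKM in GSK343 tumours and 1.09 to 1.60 FPKM in vehicle tumours. Ltb was at 47.3 to 79.6 FPKM in GSK343 tumours and 56.2 to 120.8 FPKM in vehicle tumours, and Ltbr at 48.8 to 89.6 FPKM in GSK343 tumours and 61.3 to 195.4 FPKM in vehicle tumours. With the covariate the differences on log2(FPKM + 1) were 0.20 for Tnfsf14, 0.07 for Lta, 0.07 for Ltb, 0.03 for Btla, -0.04 for Cd160 and -0.04 for Ltbr. The limma adjusted p of these 6 covariate fits was 0.998 for Ltb and Ltbr and 0.999 for the others.

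**Figure D3:**
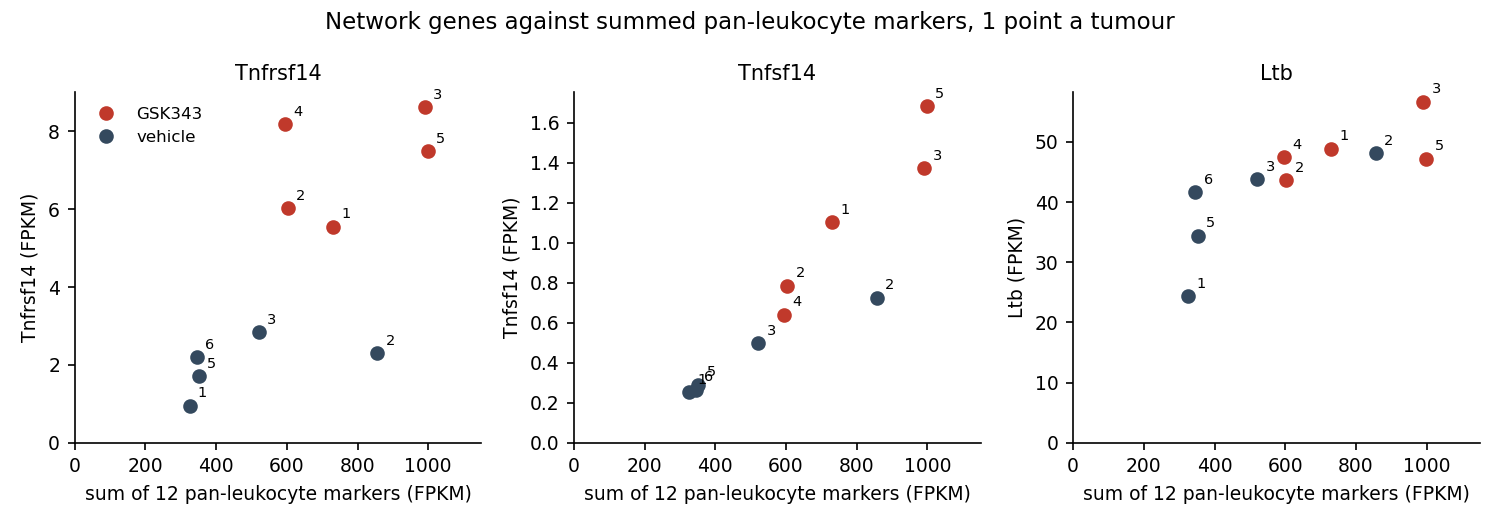
FPKM of Tnfrsf14, Tnfsf14 and Ltb in each tumour (vertical axes) against the summed FPKM of 12 pan-leukocyte markers (horizontal axes), with 1 point per tumour and groups by colour. Vehicle tumour 2, at 856 FPKM of markers, has 2.30 FPKM of Tnfrsf14, and GSK343 tumours have marker sums of 595 to 999 FPKM; the Tnfrsf14 values chose the gene.

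Among markers of single cell types, macrophage and monocyte markers summed to 1017 to 2084 FPKM in GSK343 tumours and 457 to 1838 FPKM in vehicle tumours, with 8 of 10 at an unadjusted p under 0.05 and a higher mean in GSK343 tumours, against 10.7% of the 14496 lines for these and the following counts. T cell markers summed to 135.6 to 354.7 FPKM in GSK343 tumours and 78.8 to 253.5 FPKM in vehicle tumours, with 5 of 14. Natural killer markers summed to 21.7 to 60.5 FPKM in GSK343 tumours and 12.9 to 38.7 FPKM in vehicle tumours, with 2 of 5 tested, and dendritic cell markers to 46.7 to 88.3 FPKM in GSK343 tumours and 19.4 to 70.1 FPKM in vehicle tumours, with 5 of 6 tested. B cell markers summed to 3.88 to 7.79 FPKM in GSK343 tumours and 2.06 to 6.71 FPKM in vehicle tumours, and Blk, Cr2 and Fcer2a had means under 0.1 FPKM. Neutrophil markers summed to 83.4 to 133.8 FPKM in GSK343 tumours and 47.6 to 94.5 FPKM in vehicle tumours, with 2 of 5 tested. Fibroblast markers summed to 1454 to 2233 FPKM in GSK343 tumours and 1518 to 1906 FPKM in vehicle tumours, with 5 of 8, and a median difference of 0.50. Endothelial markers summed to 36.8 to 55.2 FPKM in GSK343 tumours and 31.2 to 50.04 FPKM in vehicle tumours, with 0 of 7 tested. Their median difference was 0.23, and 6 of the 7 differences were above 0. Hepatoma and liver markers summed to 4795 to 6601 FPKM in GSK343 tumours and 6097 to 7936 FPKM in vehicle tumours, with 0 of 9 differences above 0 and 4 of 9 at an unadjusted p under 0.05 and a lower mean, against 6.86% of the lines. The groups did not overlap, with higher values in GSK343 tumours, for Csf3r and Il1r2 (neutrophil), Klrk1 (natural killer), Clec9a (dendritic) and Postn (fibroblast). They did not overlap, with lower values, for Apoa2 (hepatoma and liver). Over all lines tested, 2.62% did not overlap in either direction. None of the markers of these cell types passed the adjusted threshold in limma, and the part of these cell types in the network's differences was not tested. Skeletal muscle markers summed to 52.0 to 357.1 FPKM in GSK343 tumours and 2.71 to 88.6 FPKM in vehicle tumours. Of these, 5 of 6 had an unadjusted p under 0.05 and a higher mean, against 10.7% of the lines, with a median difference of 1.66. Keratinocyte markers summed to 14.2 to 33.2 FPKM in GSK343 tumours and 14.0 to 132.8 FPKM in vehicle tumours. Of 5 tested, 0 had a difference above 0 and 0 an unadjusted p under 0.05, with a median of -1.12. No muscle or keratinocyte marker passed the adjusted threshold, and their part was not tested. Mitochondrial transcripts took 7.17% and 7.11% of FPKM in GSK343 tumours 3 and 5 and 2.63% to 5.05% in the other tumours. Without those 2 tumours, an alternative chosen for that share, the difference was 1.36 for Tnfrsf14, 0.39 for Tnfsf14, 0.34 for Lta, 0.31 for Ltb, 0.12 for Btla, 0.10 for Cd160 and -0.10 for Ltbr.

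Besides Tnfrsf14, 21 of the 28 listed receptors of the superfamily had a mean of at least 1 FPKM, Ltbr among them, and 0 passed the adjusted threshold in limma. An unadjusted p under 0.05 was found for 7 with higher and 1 with lower means in GSK343 tumours, against 10.7% and 6.86% of all 14496 lines. Their differences ran from -0.43 to 0.94 with a median of 0.19, while the median of all lines was -0.01. With the pan-leukocyte covariate the median was 0.05, and over receptors with a mean of at least 5 FPKM it was -0.04.

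Of these receptors, the 4 with the smallest unadjusted p are given first. Tnfrsf4, the T cell costimulator OX40, averaged 7.999 ± 2.75 FPKM in GSK343 tumours and 3.79 ± 2.05 FPKM in vehicle tumours (difference 0.94, limma adjusted p = 0.192). Tnfrsf18, the costimulator GITR of regulatory T cells, averaged 7.865 ± 2.25 FPKM in GSK343 tumours and 4.49 ± 1.42 FPKM in vehicle tumours (difference 0.69, limma adjusted p = 0.192). Tnfrsf1b, the type 2 TNF receptor, which lymphotoxin alpha also binds, averaged 12.4 ± 3.27 FPKM in GSK343 tumours and 7.67 ± 2.79 FPKM in vehicle tumours (difference 0.64, limma adjusted p = 0.213). Tnfrsf13b, the B cell receptor TACI, averaged 2.41 ± 0.560 FPKM in GSK343 tumours and 1.37 ± 0.431 FPKM in vehicle tumours. The 1 receptor with a lower mean at an unadjusted p under 0.05 was Tnfrsf22, a decoy receptor for TRAIL in mice that was picked out after its values were seen. It was at 31.9 ± 5.55 FPKM in GSK343 tumours and 43.5 ± 8.94 FPKM in vehicle tumours (difference -0.43, limma adjusted p = 0.218). Differences above 0 were found for 12 of the 21 receptors. The close paralogs of Tnfrsf22, Tnfrsf23 and Tnfrsf26, lie beside it, so the counting could split reads among them.

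On the ligand side, 9 of 18 listed genes had a mean of at least 1 FPKM, and 0 of these passed the adjusted threshold in limma. Higher means in GSK343 tumours at an unadjusted p under 0.05 were found for 4 of the 9, lower means for 0, against 10.7% and 6.86% of all lines. Of these 4, Tnf and Tnfsf11 averaged below 1 FPKM in vehicle tumours and reached the filter only through their GSK343 values. Nothing is therefore read from that count. The median difference was 0.44, or 0.07 with the pan-leukocyte covariate, 0.28 without GSK343 tumours 3 and 5, 0.28 with no filter and 0.21 at a mean of at least 5 FPKM. Ltb was among these 9 genes, while Tnfsf14 and Lta lay below the filter. Tnf, the gene next to Lta, averaged 2.29 ± 1.19 FPKM in GSK343 tumours and 0.793 ± 0.455 FPKM in vehicle tumours (difference 0.85, limma adjusted p = 0.191). Tnfsf10, the death ligand TRAIL, averaged 2.85 ± 0.863 FPKM in GSK343 tumours and 1.502 ± 0.553 FPKM in vehicle tumours, and Tnfsf11, the osteoclast factor RANKL, 1.46 ± 0.759 FPKM in GSK343 tumours and 0.591 ± 0.196 FPKM in vehicle tumours. Their differences were 0.62 and 0.58.

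**Figure D4:**
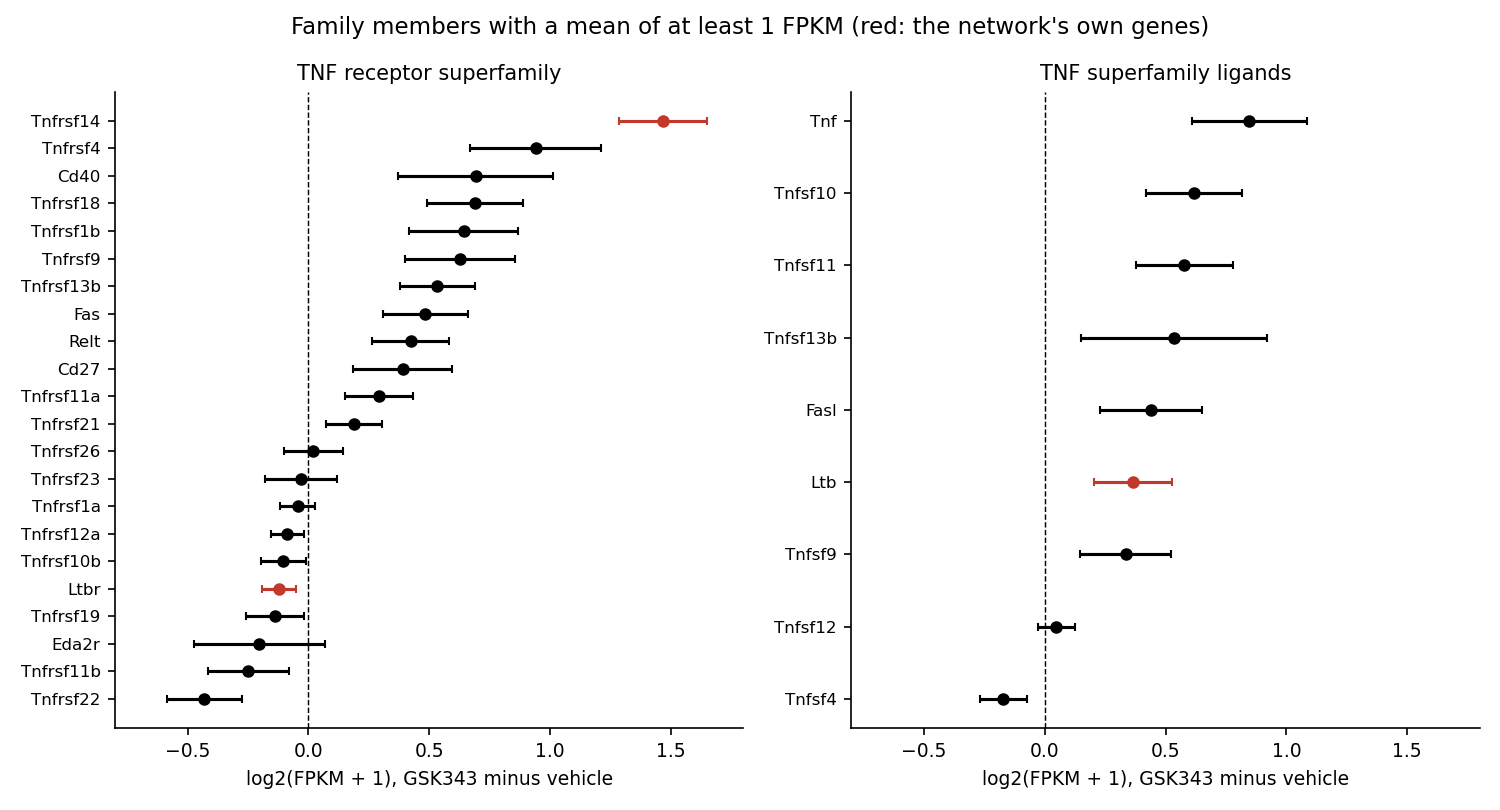
Difference of log2(FPKM + 1), GSK343 minus vehicle, with bars of 1 SE, for the tested TNF receptor superfamily genes (left) and ligands (right), red for the network's own genes. The 21 receptors besides Tnfrsf14 run from -0.43 to 0.94; Tnfrsf14, at 1.47, was chosen by its rise.

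Downstream of the receptors, all 20 adaptor and NF-kappaB genes were tested, and 0 passed the adjusted threshold in limma. An unadjusted p under 0.05 with a higher mean in GSK343 tumours was found for 6 of them and with a lower mean for 0, against 10.7% and 6.86% of all lines. The median difference was 0.18, or 0.00 with the pan-leukocyte covariate and 0.09 without vehicle tumour 1. Birc3, the ubiquitin ligase cIAP2 that restrains the kinase NIK, averaged 21.96 ± 1.76 FPKM in GSK343 tumours and 16.3 ± 2.35 FPKM in vehicle tumours (difference 0.41, limma adjusted p = 0.189). It was the 1 gene of this list whose groups did not overlap, against 2.62% of all lines tested. Nfkbia, the inhibitor that NF-kappaB itself induces, averaged 78.2 ± 13.4 FPKM in GSK343 tumours and 56.4 ± 10.2 FPKM in vehicle tumours (difference 0.47, limma adjusted p = 0.192). Traf1, an inducible adaptor, averaged 9.65 ± 2.93 FPKM in GSK343 tumours and 5.85 ± 2.03 FPKM in vehicle tumours, and Nfkbie, another inhibitor of NF-kappaB, 20.2 ± 2.92 FPKM in GSK343 tumours and 13.7 ± 4.21 FPKM in vehicle tumours.

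Values follow for other genes of the non-canonical arm that the lymphotoxin beta receptor uses, in which Birc3 also acts. Map3k14, the kinase NIK, averaged 8.65 ± 0.682 FPKM in GSK343 tumours and 8.83 ± 0.759 FPKM in vehicle tumours (difference -0.03, limma adjusted p = 0.891). Relb and Nfkb2, the transcription factor pair of this arm, had differences of 0.20 and 0.16, with limma adjusted p of 0.305 and 0.434. Traf2, Traf3 and Birc2, which act with Birc3 on NIK, had differences of 0.12, 0.04 and 0.18, and Chuk, the kinase IKK-alpha that NIK activates, one of -0.06. These 7 genes were named for their role after their values were seen.

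The 4 genes that pass on the BTLA signal, or were listed with it, all had differences above 0, against 47.6% of all lines, and 0 passed the adjusted threshold in limma. Ptpn6, the phosphatase SHP-1, which leukocytes express broadly, averaged 40.7 ± 3.11 FPKM in GSK343 tumours and 30.8 ± 6.73 FPKM in vehicle tumours (difference 0.41, limma adjusted p = 0.203). Ptpn11, the widely expressed phosphatase SHP-2, averaged 18.8 ± 1.43 FPKM in GSK343 tumours and 18.3 ± 1.49 FPKM in vehicle tumours (difference 0.03, limma adjusted p = 0.846). The adaptors Pik3r1 and Grb2 had differences of 0.30 and 0.14. With the pan-leukocyte covariate the median of the 4 was 0.08, against 0.22 without it.

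Of 14 genes known as targets of the lymphotoxin beta receptor or as parts of lymphoid tissue, 9 had a mean of at least 1 FPKM and 0 of these passed the adjusted threshold in limma. All 9 had differences above 0, against 47.6% of all lines, and 4 had an unadjusted p under 0.05 with a higher mean, against 10.7%. Tnfsf11, among these 4, averaged below 1 FPKM in vehicle tumours and reached the filter only through its GSK343 values. The median was 0.58, or 0.17 over the listed genes with no filter and 0.32 without GSK343 tumours 3 and 5. Icam1, an adhesion molecule for leukocytes, averaged 105.7 ± 16.9 FPKM in GSK343 tumours and 70.1 ± 21.6 FPKM in vehicle tumours (difference 0.63, limma adjusted p = 0.202). Vcam1, the adhesion molecule of activated endothelium and stroma, averaged 51.4 ± 12.4 FPKM in GSK343 tumours and 31.0 ± 12.3 FPKM in vehicle tumours (difference 0.76, limma adjusted p = 0.206). With the pan-leukocyte covariate the list's median was 0.02. The chemokine Cxcl13, which draws B cells into follicles, averaged 1.33 ± 0.734 FPKM in GSK343 tumours and 1.13 ± 0.707 FPKM in vehicle tumours (limma adjusted p = 0.805). Ccl19, Glycam1, Chst4 and Cr2, genes of lymphoid stroma, high endothelial venules and follicles, had means below 0.1 FPKM. Values of other genes of the list follow. Madcam1 averaged 16.2 ± 3.27 FPKM in GSK343 tumours and 14.4 ± 4.71 FPKM in vehicle tumours (difference 0.20, limma adjusted p = 0.664). Cxcl12 averaged 22.3 ± 17.6 FPKM in GSK343 tumours and 9.48 ± 9.35 FPKM in vehicle tumours (difference 1.11, limma adjusted p = 0.375). Ccl21a averaged 0.286 FPKM over the 10 tumours, with a median of 0 in each group. Cxcl13 and the genes named after it were picked out after their values were seen.

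The neighbours of Tnfrsf14 on chromosome 4 were looked at within 100 kb of its start. Of the 8 listed lines, 5 were listed at 0 in all tumours, among them Hes5, Mmel1 and Ttc34. Pank4, a pantothenate kinase family gene whose start lies at -35.6 kb (upstream), averaged 2.60 ± 1.05 FPKM in GSK343 tumours and 1.23 ± 0.572 FPKM in vehicle tumours (difference 0.68, limma adjusted p = 0.213). Fam213b, whose start lies 29.4 kb downstream, averaged 6.70 ± 1.46 FPKM in GSK343 tumours and 4.17 ± 1.86 FPKM in vehicle tumours (difference 0.62, limma adjusted p = 0.218). With the pan-leukocyte covariate their median difference was 0.05, against 0.65 without it.

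Around Lta on chromosome 17, where Ltb and Tnf lie within 10.9 kb of its start, 13 of 29 listed lines were tested and 0 passed the adjusted threshold in limma. An unadjusted p under 0.05 with a higher mean in GSK343 tumours was found for 5, against 10.7% of all lines. They were Tnf, Lst1, Aif1, Ltb and Mir6973a, which lies within Ltb on the same strand and could share its reads. Ltb is also a network gene counted above, so these are not 5 separate neighbours. Tnf and Mir6973a averaged below 1 FPKM in vehicle tumours and reached the filter only through their GSK343 values. The median difference was 0.23, or 0.03 with the pan-leukocyte covariate, 0.13 at a mean of at least 0.1 FPKM, 0.09 at 5 FPKM, 0.04 with no filter, 0.09 without vehicle tumour 5 and 0.14 without vehicle tumour 6. The myeloid genes Lst1 and Aif1 averaged 36.1 ± 8.13 and 64.1 ± 10.7 FPKM in GSK343 tumours, against 20.5 ± 9.32 and 38.4 ± 19.8 FPKM in vehicle tumours. Their differences were 0.85 and 0.84. The housekeeping neighbours Ddx39b, Bag6, Csnk2b, Gpank1 and Prrc2a had differences of 0.09, -0.05, 0.03, -0.04 and -0.13. Nfkbil1 had a difference of -0.18.

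**Figure D5:**
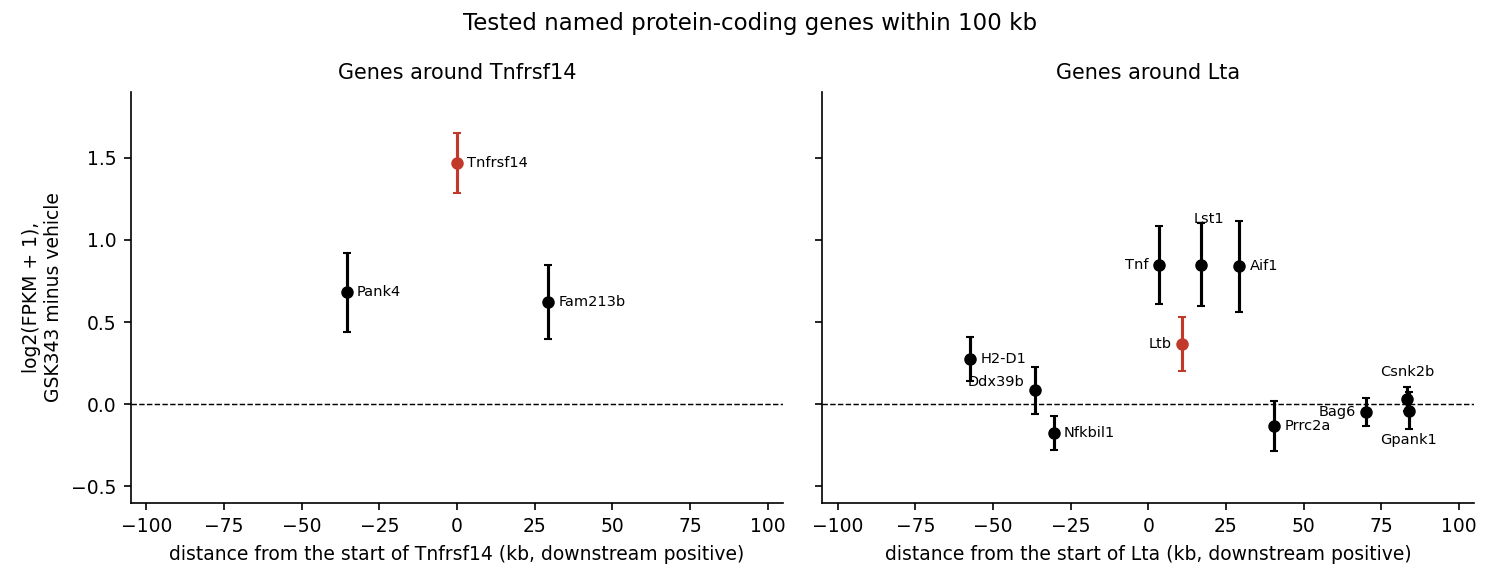
Difference of log2(FPKM + 1), GSK343 minus vehicle, with bars of 1 SE, against distance in kb from the start of Tnfrsf14 (left) or Lta (right). Points are tested named protein-coding genes within 100 kb of that start. RP23-115O3.10, tested under a clone name, is not drawn. Tnfrsf14 lies at 1.47 with Pank4 and Fam213b at 0.68 and 0.62, while around Lta the differences run from -0.18 to 0.85.

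Genes whose level followed Tnfrsf14 from tumour to tumour were ranked by Pearson's r over the 10 tumours after the mean of each group was taken off, among 11338 protein-coding genes. The first 5 were Oas1g with r = 0.95, Rmi2 with 0.92, Psma1 with 0.89, Ogfod1 with 0.89 and Xcl1 with 0.88. These are descriptions without a p, and the tumours share their libraries across all genes. They are the extremes of 11338 genes over 10 tumours, and the r that chance alone would reach was not computed. On the same measure Ltb had r = 0.85, Lta 0.60, Btla 0.44, Tnfsf14 0.36, Cd160 0.25 and Ltbr -0.68. Oas1g, an interferon-induced oligoadenylate synthetase gene, averaged 11.1 ± 3.55 FPKM in GSK343 tumours and 8.04 ± 3.12 FPKM in vehicle tumours. Xcl1, a chemokine of cytotoxic lymphocytes, averaged 8.43 ± 3.04 FPKM in GSK343 tumours and 2.95 ± 1.56 FPKM in vehicle tumours. Psma1, a proteasome subunit, averaged 137.5 ± 6.17 FPKM in GSK343 tumours and 137.8 ± 12.1 FPKM in vehicle tumours. Oas1g has near-identical paralogs, so its level is uncertain.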

How the data were processed

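The deposited table, made by the authors with Trimmomatic 0.33, StringTie 1.3.3b and HISAT2 2.1.0 on mm10 per the submitters' processing notes, gives 1 FPKM value per gene and tumour. Its header names no unit: FPKM was read from the size and steps of the values. Of values in genes of a single exon, 22.0% to 32.9% lay within 0.05 of a whole step, so reads were not recovered and no count test was run. Options, annotation and strand setting are not stated in these sources. There were 10 unnamed columns, all empty.

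The groups were compared on log2(FPKM + 1) in limma 3.58.1 under R 4.3.3 with a trend on intensity, two-sided, for the 14496 lines averaging 1 FPKM or more, and for the 20880 averaging 0.1 FPKM or more where a gene lay below that. Calls needed a Benjamini-Hochberg adjusted p under 0.05 over all lines. The added constant shrinks differences of low genes. P-values measure the spread between tumours. The labels give no batch. The fit was tested on simulated data. That simulation used the filter of 1 FPKM and changed only lines at higher levels than Tnfrsf14, so it does not cover the genes below that filter. The 7 genes, the lists and the rule for named genes (up to 4 per list with the smallest p, neighbours within 100 kb, the 5 most alike) were chosen with earlier results of these data known. Positions come from the authors' table, overlaps from GENCODE M21, and promoters from RefSeq (GRCm38.p6), where all 7 genes matched. Alternatives changed the filter, the added constant, the scaling, the variance model, the covariates and the tumours included.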

Additional observations from a re-analysis of the deposited data

Results flagged for a closer look

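Cd160 had a tumour far from the others in each group. GSK343 tumour 5 was at 2.01 FPKM, while the nearest GSK343 tumour was at 1.01 FPKM and the farthest at 0.624 FPKM. Vehicle tumour 2 was at 1.005 FPKM, while the nearest vehicle tumour was at 0.568 FPKM and the farthest at 0.467 FPKM. Both tumours had the highest sum of pan-leukocyte markers in their group, 999 FPKM and 856 FPKM, and the part of leukocyte content in these values was not tested. Of the 14 groups of 5 tumours looked at, these 2 met Dixon's 95% limit, and chance alone marks about 1 group in 20.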

How the results depend on the processing

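The count of lines past the threshold was 12 and moved with most settings. It was 7 with a mean of at least 0.1 FPKM, 6 with no filter, 3 with at least 5 FPKM, 7 with 5 as the added constant, 7 after quantile normalization, 2 with the pan-leukocyte covariate and 4 without GSK343 tumours 3 and 5. With 1 tumour left out at a time it ran from 3 to 96, and it was 96 without vehicle tumour 2, 37 without GSK343 tumour 1, 6 without vehicle tumour 1 or GSK343 tumour 5, 5 without vehicle tumour 5 or 6, 4 without GSK343 tumour 2 and 3 without GSK343 tumour 3 or 4. Called lines split into 10 higher and 2 lower in GSK343 tumours, and into 2 and 0 with the covariate. The cause of these shifts was not tested.

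With the replicate number as a block, 2 lines were called, the difference of Tnfrsf14 was 1.45, of Ltb 0.41 and of Ltbr -0.13, and tumours without a shared number added nothing. Same-numbered tumours had correlations of -0.33 to 0.03 and 0 of 8 were closest to their own number. These values give no sign that the numbers pair the tumours, and so few tumours cannot exclude it.

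With a mean of at least 0.1 FPKM, the log2 fold change of Cd160 was 0.30, and -0.037 with the pan-leukocyte covariate, the 1 reversal among the 7 genes over the alternatives run. With 1 tumour left out at a time, Tnfrsf14 ran from 1.32 to 1.57, Tnfsf14 from 0.49 to 0.66, Lta from 0.41 to 0.73, Ltb from 0.22 to 0.45, Cd160 from 0.15 to 0.38, Btla from 0.12 to 0.24 and Ltbr from -0.16 to -0.09. Btla, Cd160, Tnfsf14 and Lta rest on values near 1 FPKM or below, where the added constant sets the size of a difference.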
